A study of Mus musculus with 12 samples.

Results

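The comparison is between TT-FHAgo2 mouse embryonic stem cells grown with doxycycline at 2.5 µg/mL and the same line labelled as without the drug, 2 of the 12 samples of the series, chosen by their titles. TT-FHAgo2 is a clonal line that makes Ago2 with FLAG and HA tags from a gene switched on by doxycycline. The series' design text speaks of stem cells without Ago proteins, and the labels give 2.5 µg/mL as the dose that brings Ago2 to the level of wildtype cells. Both cultures share the line and its propagation in 0.1 µg/mL doxycycline. How long the drug was withdrawn and which promoter drives the transgene are not given in the sources used here. Each condition is 1 library of total RNA, cut from a gel at 18 to 75 nt and cloned with a kit that needs a 5' phosphate. Wildtype and Dicer-null stem cells, neither given doxycycline, were cloned in the same way, 1 library each, and stand beside the pair as reference.

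MicroRNAs (miRNAs) are small RNAs cut from hairpin transcripts, in most cases first by Drosha in the nucleus and then by Dicer. The duplex that Dicer releases is loaded into an Argonaute protein, 1 strand (the guide) is kept and the other (the passenger) is discarded. A guide inside Argonaute finds its targets through its seed, bases 2 to 8, and is shielded from nucleases. Argonaute holds the first base of the guide in a pocket that favours U or A.

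The pair held 27829938 reads with doxycycline and 26542602 without it. Wildtype gave 32255916 reads and the Dicer null 78762632. Levels are given as CPM, the count scaled to 1000000 reads of the file, and a count of 0 allows up to 0.108 CPM with doxycycline and 0.113 CPM without it. Of reads, 39.9% with doxycycline and 34.2% without it matched an annotated transcript exactly. Features with 100 or more reads over the pair were compared, which kept 327 of the 1373 hairpin features that had a read in the pair. A feature is a hairpin gene, or a set of them where a read fits several. With 1 library per condition there is no test. Intervals are exact 95% intervals (Clopper-Pearson) for counting error only, and a feature was called higher or lower when its CPM ratio was 2 or more, or 0.5 or less. Between the 2 libraries of each replicated group of the series, which were cloned by another protocol, 13.6% to 42.9% of hairpins differed by 2-fold or more. The fold that 95% of hairpins stayed under in those groups was 2.85 to 4.24.

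Reads of the 4 Argonaute genes were too few to show the induction. Ago2 had 82 reads with doxycycline and 75 without it, a CPM ratio of 1.04 (0.753 to 1.45). The labels do not say whether the transgene has the mouse sequence, so these counts may leave its reads out, and reads of a mouse transgene and of the endogenous gene cannot be told apart. Ago1 had 0 reads in both libraries of the line, against 34 in wildtype and 407 in the Dicer null. Ago3 had 48 and 43 reads, Ago4 1 and 0. Dicer1 had 75 and 92 reads, a ratio of 0.778 (0.565 to 1.07). The absence of Ago1 reads marks both as the line without that gene's RNA, but no gene here checks which library was induced.

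Abundant miRNAs of the pair are shown first, grouped by shared seed, since the seed decides which transcripts a guide can reach. Mature sequences are those of RefSeq (GRCm38.p6), with the seed in capitals. They were taken from the leading seeds for which a mature sequence was matched. The top 2 lines share the seed CUCAAAC and the 3 lines after miR-293-3p the seed AAGUGCU, all from the miR-290-295 cluster, and the 2 lines of miR-30 share GUAAACA.
miR-292a-5p: aCUCAAACugggggcucuuuug
miR-293-5p: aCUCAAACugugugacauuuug
miR-293-3p: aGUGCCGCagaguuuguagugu
miR-295-3p: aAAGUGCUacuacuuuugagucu
miR-294-3p: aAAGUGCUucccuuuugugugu
miR-291a-3p: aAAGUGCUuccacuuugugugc
miR-21a-5p: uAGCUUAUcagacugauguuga
miR-7a-5p: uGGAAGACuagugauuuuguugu
miR-30e-5p: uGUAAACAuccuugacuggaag
miR-30a-5p: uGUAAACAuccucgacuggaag
miR-20a-5p: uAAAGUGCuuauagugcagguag
miR-92a-3p: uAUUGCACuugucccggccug
miR-182-5p: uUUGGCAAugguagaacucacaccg
Reads with the seed GUGCCGC of miR-293-3p stood at 8805 CPM with doxycycline and 95.7 CPM without it (ratio 92.0), second to CUCAAAC with 30821 and 552 CPM (55.9).

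MiRNA hairpins took 10.3% of all reads with doxycycline (interval 10.27 to 10.29) and 1.30% without it (1.295 to 1.304), a ratio of 7.91. The Dicer null, with 1.42%, lay close to the library without doxycycline, and wildtype, with 21.1%, above both. Other small RNA classes were nearly level. Small nucleolar RNAs (snoRNAs), which guide chemical modification of rRNA, held 14.6% and 14.4% of reads. Small nuclear RNAs of the spliceosome held 1.60% and 1.92%, and annotated rRNA 2.20% and 2.88%. Since CPM is a share of each file, fewer cells with a given RNA and less of it per cell cannot be told apart.

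Of the 327 hairpin features, 256 were higher with doxycycline by 2-fold or more (78.3%) and 3 were lower (0.917%). The median CPM ratio was 30.5, or 4.93 on the log2 scale. The annotation of miRNA genes also holds entries that are not cut by Dicer, so the features were split by the 2 reference libraries. A hairpin was called Dicer-dependent when it had 100 or more wildtype reads and a wildtype CPM at least 4 times the Dicer-null CPM, a rule added after the data had been seen. Of 255 Dicer-dependent hairpins 249 were higher and none lower, with a median ratio of 41.1. In 36 of them the ratio was 100 or more. The other 72 had a median ratio of 0.897, with 7 higher and 3 lower. The Dicer-dependent hairpins summed to 93504 and 2301 CPM in the pair, against 201105 CPM in wildtype and 1304 CPM in the Dicer null. In 220 of the 255 the level with doxycycline was below wildtype, with a median of 0.388 of the wildtype level.

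**Figure D1:**
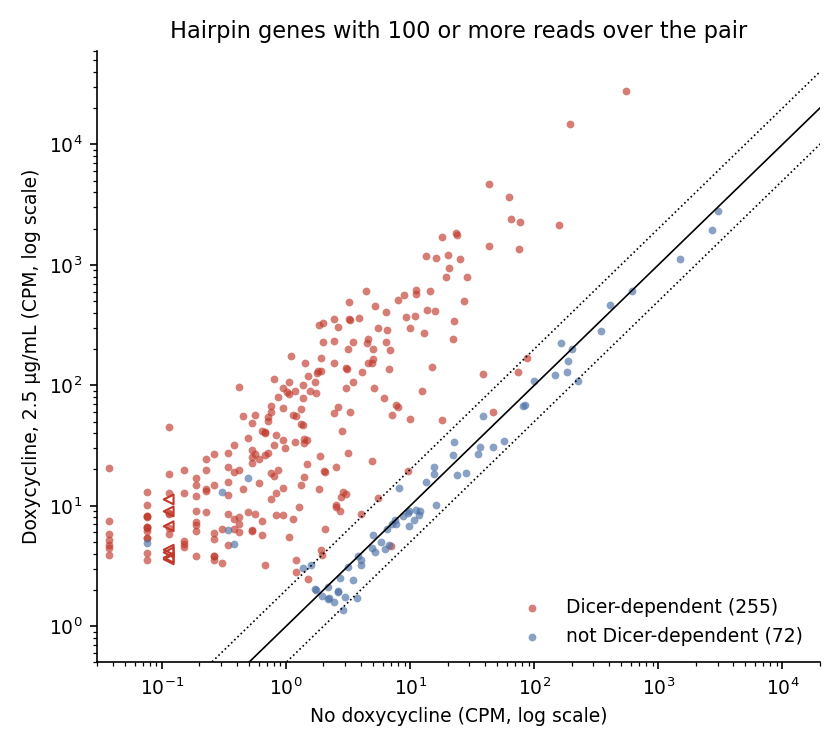
CPM of each hairpin feature without doxycycline (x axis) and with it (y axis), both on log scales. Red points are Dicer-dependent, blue points are not, open triangles had 0 reads without doxycycline and are drawn at the limit of 3 counts, the solid line marks equal levels and the dotted lines 2-fold. Of 255 red points 249 lie at or above the upper dotted line and 216 show a ratio of 10 or more, and most blue points (62 of 72) lie between the dotted lines.

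The most abundant miRNAs of the line were those of the miR-290-295 cluster, which is the hallmark of mouse embryonic stem cells. Mir292 (GRCm38 chr7:3219189-3219270, plus strand) stood at 27759.7 CPM with doxycycline and 546 CPM without it, a ratio of 50.9 (50.03 to 51.7). Mir293 stood at 14648 and 193 CPM (ratio 76.0), and Mir295 at 2271 and 77.2 CPM (29.4). All 7 measured members were higher, with ratios from 29.4 to 76.0 and a median of 39.5. With 78.3% of all features and 249 of 255 Dicer-dependent hairpins higher, a count of all members in this or any list below is close to the background, and the lists are described by their levels and ratios. Of all 20 to 25 nt reads of Dicer-dependent hairpins, the seed CUCAAAC shared by miR-292a-5p and miR-293-5p made up 33.3% with doxycycline, 25.8% without it and 17.3% in wildtype. The AAGUGCU seed made up 3.85%, 2.75% and 6.97%.

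The miR-302 members of the cluster of miR-302 and miR-367 carry the same AAGUGCU seed. This cluster, which marks pluripotent and epiblast cells, was rare in the line. Its features summed to 48.3 CPM with doxycycline, 1.54 CPM without it and 3574 CPM in wildtype, 74.1 times the level with doxycycline. All 3 measured members were higher with the drug. Mir302b had 703 and 14 reads, a ratio of 47.9 (28.4 to 88.1), and Mir302d 227 and 2 reads.

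Proliferation-promoting miRNAs of the miR-17-92 group, its paralogous clusters included, had all 16 measured members higher, with a median ratio of 75.7. Mir20a stood at 1833 CPM with doxycycline and 23.2 CPM without it (ratio 78.8). Mir18b had a ratio of 234, Mir93 170 and Mir106a 160. Mir92-1, in an exon of Mir17hg, stood lower in that order, with 59140 and 4175 reads, a ratio of 13.5 (13.1 to 13.9).

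Several of the most abundant miRNAs lay outside these clusters. Mir21a, which lies in an exon of Vmp1 and is abundant in many proliferating cells, stood at 4701 CPM with doxycycline, 43.5 CPM without it and 4899 CPM in wildtype. Its ratio of 108 (102 to 115) was above the median, and its induced level was close to wildtype. The 3 members of the cluster of miR-183, miR-96 and miR-182, known from sensory organs, had ratios from 36.2 to 95.5. Mir182 stood at 2385 and 64.4 CPM. The reads shared by Mir7-1 and Mir7-2 stood at 3669 and 63.0 CPM (ratio 58.2), and Mir148a at 1772 and 23.8 CPM (74.5).

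Imprinted and rodent-specific clusters responded in the same range. In the Dlk1-Dio3 cluster, expressed from the maternal chromosome, 43 of 44 measured hairpins were higher and 1 was not past 2-fold, with a median ratio of 60.3. That count is near the share of all Dicer-dependent hairpins, 249 of 255. Mir127 had 33204 reads with doxycycline and 353 without it (ratio 89.7), and Mir758 1263 and 3 reads (402, interval 137 to 1950). The exception was Mir299a, with 3576 and 1947 reads and a ratio of 1.75 (1.66 to 1.85). In the cluster in an intron of Sfmbt2 all 27 measured features were higher, with a median ratio of 71.5. It held the highest ratio of all 327 features, the merged Mir466 feature with 569 reads and 1 read, a ratio of 543 with an interval of 97.01 to 21472.

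**Figure D2:**
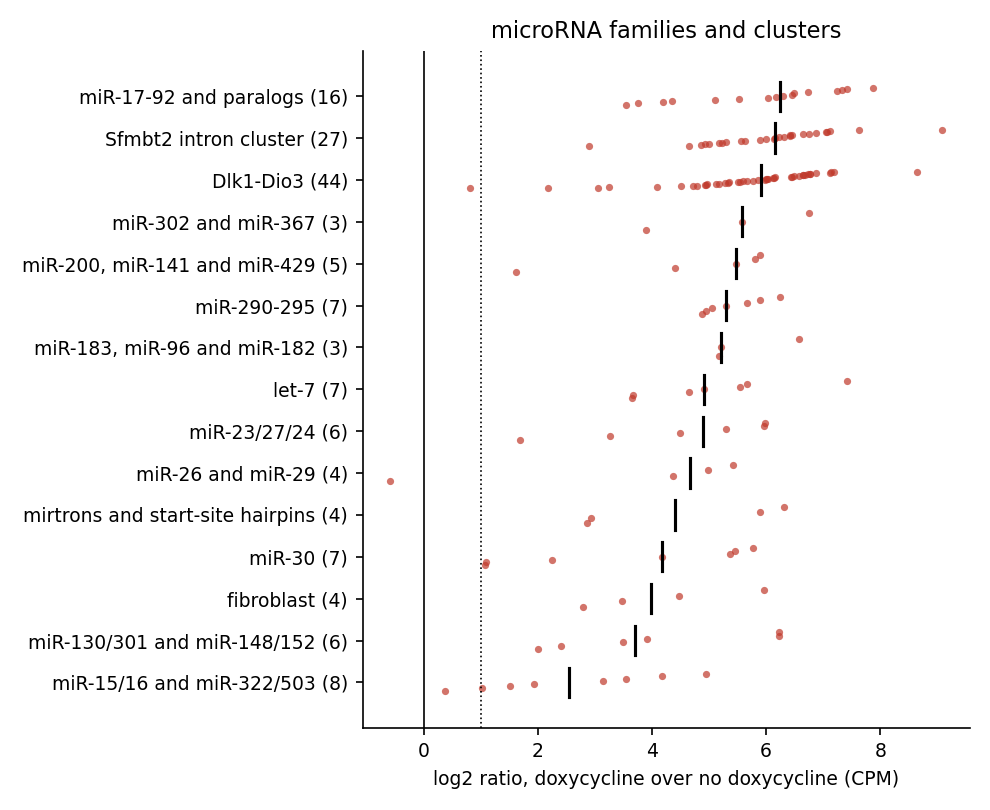
Log2 ratio of CPM with over without doxycycline (x axis) for each measured hairpin feature (points) of the miRNA lists with 3 or more measured members (rows, number of members in brackets). Short black bars are list medians, the solid line is no difference and the dotted line 2-fold. The medians run from 2.54 in the miR-15/16 list to 6.24 in the miR-17-92 list, against 4.93 over all 327 features.

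Families linked to differentiated cells were rarer in the pair than the miR-290-295 cluster, and their ratios were spread widely. All 7 measured let-7 features, whose miRNAs rise as cells differentiate, were higher with a median ratio of 30.04. Mirlet7g stood at 66.3 and 2.64 CPM. All 5 of the epithelial list of miR-200, miR-141 and miR-429 and all 6 of the miR-23/27/24 list were higher, with ratios of their summed levels of 36.2 and 17.4. The 4 measured hairpins of the fibroblast list were higher, with a sum of 169 CPM against 4.18 CPM and 267 CPM in wildtype. The ratio of these sums was 40.5. Neural hairpins summed to 82.8 and 11.0 CPM (7.52), blood hairpins to 91.0 and 9.87 CPM (9.22), and muscle hairpins to 2.23 and 0 CPM. The liver miRNA Mir122 stood at 1.15 and 0.527 CPM, with 32 and 14 reads (ratio 2.18, interval 1.13 to 4.42). Its level was 1.09 CPM in wildtype and highest in the Dicer null, at 3.72 CPM. Whether such low levels come from the stem cells or from other cells was not tested.

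MiRNAs made by unusual routes differed as well. Some hairpins skip the Drosha step, because splicing or transcription itself sets their ends, yet they need Dicer. All 4 measured ones were higher. Mir484 stood at 120 and 1.51 CPM (ratio 79.4) and Mir1981 at 13.4 and 0.226 CPM (59.1). Mir320 was lower in that order, with 2503 and 328 reads and a ratio of 7.28 (6.48 to 8.19). Mir451a, which Ago2 cuts in place of Dicer, was too rare to read: it had 7 reads with doxycycline and 4 without it, a ratio of 1.67 (0.424 to 7.78).

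Of the 327 features 7 had 0 reads without doxycycline. All 7 passed the read minimum through the doxycycline library alone. Mir493 had 314 reads with the drug, which is 99.8-fold higher when 0 is set to 3 counts. Mir107, in an intron of Pank1, had 250 reads, 79.5-fold higher in this way, with a lower interval limit of 64.2. The other 5, with 100 to 188 reads, were 31.8-fold to 59.8-fold higher in this way. These folds are not lower bounds.

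The entries that are not Dicer-dependent were mostly level, with 62 of 72 between the 2-fold limits. The highest of the 7 higher ones were Mir770, with 137 and 2 reads (ratio 65.3, interval 17.7 to 545), and Mir10b, with 361 and 8 reads (43.04). Mir770 had 93 wildtype reads and so missed the read minimum of the rule, and Mir10b missed its wildtype to Dicer-null ratio. Among the abundant entries, Snord43 is a snoRNA gene in an intron of Rpl3 that was annotated among the miRNA genes, and it stood at 2826 and 3041 CPM in the pair, at 3653 CPM in wildtype and at 3475 CPM in the Dicer null. Mir6539 stood at 109, 223, 72.3 and 292 CPM, and its ratio of 0.489 (0.468 to 0.511) was the lowest among features with 10 CPM or more. Mir6236 stood at 129, 183, 71.9 and 188 CPM. The merged entry Gm47285/Gm47301, the most abundant predicted miRNA gene here, stood at 1930 and 2707 CPM, and at 4328 CPM in the Dicer null.

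Only 6 of the 255 Dicer-dependent hairpins did not reach 2-fold, and these 6 were named after their values were seen. Mir299a and Mir708 were the most abundant, Mir708 with 4681 and 2318 reads, a ratio of 1.93 (1.83 to 2.03). Mir16-1 had 1672 and 1235 reads (ratio 1.29) and Mir26a-2 130 and 186 reads (0.667). These last 2 features hold mainly the 3p strand, because the 5p sequence also fits a paralog and was counted for a merged feature. The merged features differed far more, with a ratio of 31.03 for Mir16-1/Mir16-2 and 42.6 for Mir26a-1/Mir26a-2. Mir671, with 109 and 52 reads, lay just under the limit, and the sixth was a merged feature of Mir3473b, with 69 and 40 reads. Both strands of a duplex are made in equal numbers, and they were next compared one by one.

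In Dicer-dependent single hairpins the strand rarer in wildtype differed less than its partner, a subset chosen after the data had been seen. The major arm was defined as the one with more wildtype reads. Over 210 Dicer-dependent hairpins the minor arm gave 12.8% of reads with doxycycline (12.7 to 12.8), 29.96% without it (29.6 to 30.3) and 12.1% in wildtype. Of 93 hairpins with 50 or more reads without doxycycline, the minor arm share was higher without the drug in 77 and lower in 14. In 73 hairpins with 100 or more reads on each arm over the pair, the median ratio was 56.0 for the major arm and 9.03 for the minor arm. The minor arm had the lower ratio in 58 of the 73. Over all 234 single hairpins, non-Dicer entries included, the shares were 12.4% and 12.4% (ratio 0.998). With the major arm of all these hairpins taken from the pull-down in place of wildtype, the ratio was 1.59, so the direction depends on the set and on how arms are defined.

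**Figure D3:**
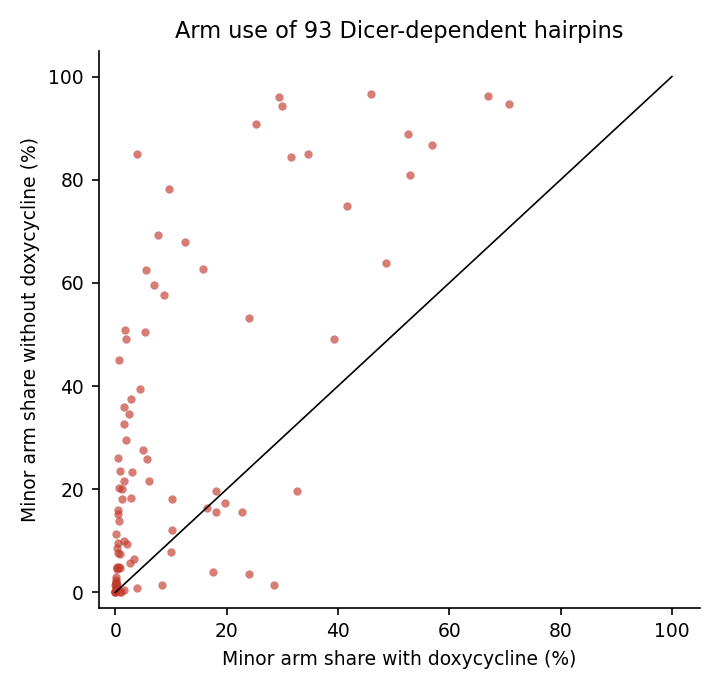
Share of reads from the minor arm with doxycycline (x axis, %) and without it (y axis, %) for 93 Dicer-dependent hairpins with 50 or more reads without doxycycline; the line marks equal shares. Points for 77 hairpins lie above the line and 14 below it.

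Reads that were level are printed here with a read of the partner strand, because the contrast lies between 2 RNAs of 1 precursor. Each strand is shown by 1 read, and other reads of the same arm could differ. Log2 ratios ran from −0.328 to 2.27 for Mir708 3p reads that begin with C. They ran from 0.0213 to 2.62 for Mir92-1 5p reads that begin with A. Summed over all reads, the ratio was 1.26 for the first arm and 1.20 for the second. The sequences are the reads as deposited, with T for U, and the capital marks the first base. Each pair gives the level read first and the read that was higher with doxycycline second.
miR-708-3p: Caactagactgtgagcttctaga
miR-708-5p: Aaggagcttacaatctagctggg
miR-27a-5p: Agggcttagctgcttgtgagca
miR-27a-3p: Ttcacagtggctaagttccg
miR-92a-1-5p: Aggttgggatttgtcgcaatg
miR-92a-3p: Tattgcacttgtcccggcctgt
miR-195a-3p: Ccaatattggctgtgctgctcca
miR-195a-5p: Tagcagcacagaaatattggca
miR-16-1-3p: Ccagtattgactgtgctgctgaa
miR-16-5p: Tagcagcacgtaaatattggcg
miR-124-5p: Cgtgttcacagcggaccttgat
miR-124-3p: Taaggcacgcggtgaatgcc

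The miR-708-3p read above had 847 reads with doxycycline and 1014 without it, a ratio of 0.797 (0.726 to 0.874). Its partner on the 5p arm of Mir708 (chr7:96249424-96249532, in an intron of Tenm4) had 1184 and 118 reads, a ratio of 9.57 (7.91 to 11.7). This 1 read of the 3p strand was somewhat lower with doxycycline while its partner was far higher. All 3p reads of Mir708 together had 2662 and 2012 reads, a ratio of 1.26 (1.19 to 1.34). For Mir27a (chr8:84208672-84208758) the 5p read had 902 and 884 reads (ratio 0.973) and the 3p read 2022 and 39 reads (49.4). For Mir92-1 the 5p read had 2457 and 2309 reads (1.01, interval 0.958 to 1.07) and the 3p read 53906 and 1504 (34.2). All 3p reads of Mir92-1 had a ratio of 34.0, itself under the median of 75.7 for whole hairpins of the miR-17-92 group. The low ratio of the whole Mir92-1 hairpin among its cluster thus went only in part with its 5p arm. That arm's share of the hairpin's reads was 5.55% with doxycycline and 62.4% without it. In wildtype this 5p read had 258 reads, fewer than in either library of the pair.

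The same held for related guides of the miR-15/16 family, which restrain the cell cycle. The miR-195a-3p read had 437 and 337 reads (ratio 1.24), and miR-195a-5p 565 and 8 reads (67.4). The miR-16-1-3p read had 1060 and 921 reads (1.10), and the miR-16-5p read shared with Mir16-2 1426 and 18 reads (75.6). For the neural miR-124 the 5p read had 97 and 111 reads (0.833) and the 3p read 177 and 4 (42.2). In each of these hairpins the strand that was higher with doxycycline is the one with more wildtype reads.

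A minority of hairpins went the other way, with a smaller minor arm share without doxycycline. Mir322 had a minor arm share of 28.5% with the drug and 1.49% without it, and Mir667 one of 17.6% and 3.95%. The main 3p read of Mir136, which begins with C, had 2115 and 360 reads (ratio 5.603), while the main 5p read, which begins with A, had 578 and 6 (91.9).

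Strands of 20 to 25 nt with 100 or more reads over the pair were then compared by their first base, a comparison chosen after the data had been seen. There were 652 such sequences from 210 Dicer-dependent features, of which 622 were higher with doxycycline by 2-fold or more (95.4%), none was lower and 30 were under 2-fold. Of 276 sequences that begin with T, 1 was under 2-fold. Of 215 that begin with A there were 8, of 112 that begin with C 16, and of 49 that begin with G 5. Together, 1.83% of T or A sequences and 13.0% of C or G sequences were under 2-fold. The minor arm, with 8 of 64 against 14 of 49, held most of these sequences. By single base, the minor arm had 0 of 19 under 2-fold for T and 8 of 45 for A. The counts there were 12 of 43 for C and 2 of 6 for G, so A and T were not alike. Of the 8 on the major arm, 3 were length forms of Mir299a and the other 5 came from Mir16-1, Mir26a-2 and Mir30c-2. In the last 3 hairpins the 3p strand counts as the major arm here because their 5p strand was counted for a merged feature, so arm and first base were not separated. Over both arms the medians were closer, with ratios of 54.8 for T or A and 38.5 for C or G. They were 57.6 and 51.3 on the major arm, but 33.4 and 6.14 on the minor arm. On the minor arm the difference was thus not confined to the low tail. GC content differed too, with a median of 43.5% for T or A and 50% for C or G sequences, and its part in the result was not tested. Sequences of 1 hairpin that differ only in length are not independent of each other.

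**Figure D4:**
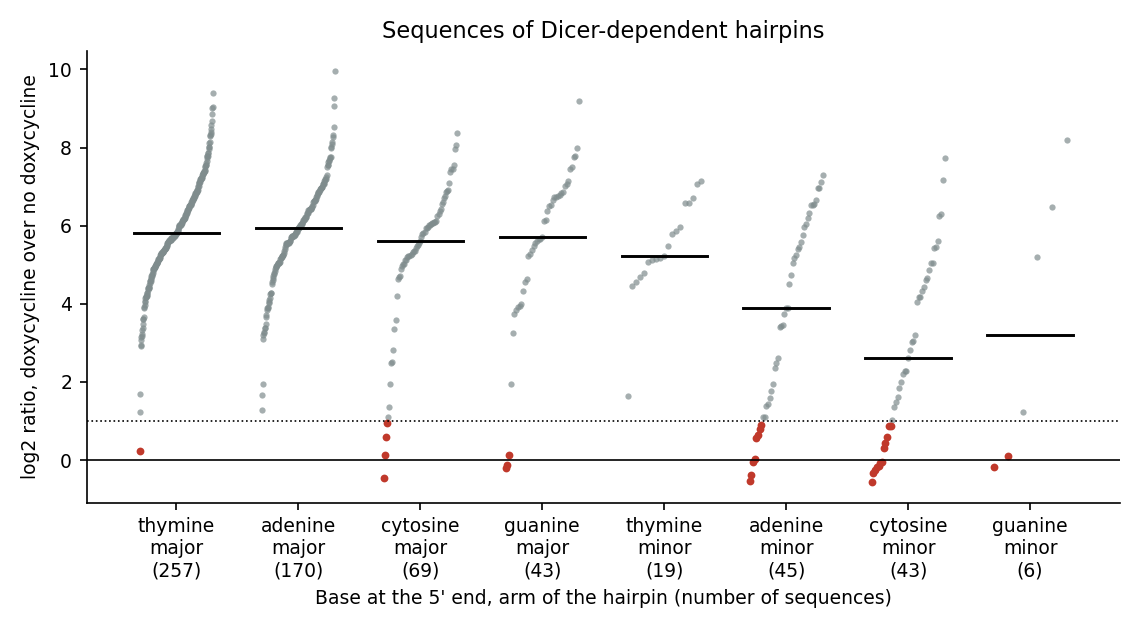
Log2 ratio of CPM with over without doxycycline (y axis) of 652 sequences of Dicer-dependent hairpins, grouped by first base and arm (x axis, number of sequences in brackets). Bars are medians, the dotted line is 2-fold, the solid line is no difference and red points are the 30 sequences under 2-fold, 1 of them among the 276 that begin with thymine.

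A contrast within 1 strand was read in Mir299a, which is shown because 1 of its starts was level in the pair. Reads of the 3p arm of Mir299a (chr12:109710638-109710700) begin at 2 adjacent bases, so the same strand is read with G or with T in front. The 2 forms also differ in their seed.
miR-299a-3p, upstream start: Gtatgtgggacggtaaaccgct
miR-299a-3p, downstream start: Tatgtgggacggtaaaccgctt

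The form with G had 1380 reads with doxycycline and 1438 without it, a ratio of 0.915 (0.849 to 0.986). The form with T had 940 and 101 reads, a ratio of 8.88 (7.22 to 11.01). Summed over lengths, the start at G had a ratio of 0.925 (0.863 to 0.991) and the start at T one of 7.29 (6.36 to 8.39), and these intervals do not overlap.

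Other arms with a pair of starts within 2 bases were mixed, and some differed more than Mir299a. In Mir16-1 the main 3p start, at C, had a ratio of 1.15 (1.06 to 1.25) and the other, at T, one of 17.98 (8.49 to 45.6). In Mir196a-1 a start at C had a ratio of 2.69 and one at A, with 130 reads and 1 read, 124 (21.9 to 4934). In 18 arms the main start had T or A and the other C or G, and the other start had the lower ratio in 14 of them, with a median of 0.464 of the main start's ratio. In 15 arms with the bases the other way round the other start was lower in 8 and higher in 7. In 24 arms with T or A at both starts it was lower in 12 and higher in 12. Mir101a was among the arms that went against the pattern: its start at T had a ratio of 21.97 (19.4 to 24.97) and its start at G one of 118 (87.9 to 162). Mir296 did so too, with 22.2 (19.4 to 25.5) at G and 3.17 (2.77 to 3.64) at A. So did Mir434, with 40.7 at G and 11.4 at A, and the 5p arm of Mir295, with 2.61 at A and 9.83 at G.

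The pull-down libraries of the series, which are independent of the pair, give a second measure for the same sequences. They hold RNA bound by the FLAG-tagged Ago2 of TT-FHAgo2 cells at 2.5 µg/mL doxycycline, in 2 libraries made by circularization, which clones RNA whatever its 5' end. The wildtype library is total RNA of other cells, cloned through its 5' phosphate. A ratio to it therefore mixes cells, cloning and pull-down, which were not told apart. The mean CPM in the pull-down was divided by the CPM in wildtype, for sequences with 50 or more wildtype reads. The median was 0.100 for 26 sequences under 2-fold in the pair, 1.01 for 79 between 2-fold and 16-fold, and 1.41 for 539 at 16-fold or more. In the 2 pull-down libraries taken alone the first of these was 0.116 and 0.106, and the last 1.49 and 1.302. A value under 0.1 was found for 13 of the 26 sequences, 9 of the 79 and 42 of the 539. Sequences that begin with T or A made up 26.9%, 63.3% and 79.8% of these groups, and the part of the first base was not tested. The counts of single sequences that follow are raw, summed over the 2 pull-down libraries and not scaled to depth. The miR-708-3p read had 2 reads in the pull-down and 1221 in wildtype, while its 5p partner had 7120 and 4995. The form of miR-299a with G had 32 and 1705 reads, and the form with T 1149 and 3045. Exceptions were found, as the miR-30e-3p read, with a ratio of 1.82 in the pair, had 8699 reads in the pull-down and 1964 in wildtype. A ratio to the untagged pull-down was taken for sequences with 50 or more reads over both pull-downs. The untagged group is 2 libraries titled Ago2 in place of FHAgo2, at 2.5 µg/mL doxycycline after propagation in 0.1 µg/mL. This minimum kept 15 of 30, 75 of 80 and 529 of 542 sequences, and so left out those rare in the pull-downs. Among the sequences kept there was no such order, with medians of 6.98, 5.51 and 5.82.

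The remaining miRNA reads without doxycycline differed in their ends. In Dicer-dependent hairpins reads of 18 to 20 nt made up 3.09% with doxycycline, 9.20% without it and 2.14% in wildtype. Reads of 21 to 23 nt made up 85.8%, 76.6% and 84.4%. Reads over 26 nt made up 0.104% with doxycycline and 3.12% without it, and the mean length was 22.1 nt and 22.2 nt. As a level these long reads were not higher without the drug, with 97.4 CPM with doxycycline and 71.9 CPM without it. In the Dicer null the mean was 26.2 nt. Over all hairpins the mean was 23.1 nt with doxycycline and 31.4 nt without it. In the same reads, 4.48% and 43.0% ended at the 40 nt limit of the run, which is 128049 and 148338 reads.

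Reads with 1 or 2 unmatched bases after a hairpin sequence were counted as tailed, since terminal transferases add U or A to small RNAs. Over all hairpins 14.6% of reads were tailed with doxycycline and 11.8% without it, and a single T stood on 3.78% and 3.52%. The Dicer-dependent subset, chosen after the data had been seen, went the other way. In it 15.0% of reads were tailed with doxycycline and 16.3% without it. Their makeup differed more. A single T stood on 3.88% with doxycycline (3.86 to 3.91) and 6.68% without it (6.50 to 6.86), with 4.04% in wildtype. A pair of T stood on 0.284% and 1.15%, and a single A on 4.69% and 2.78%. A single C, with 3.96% and 3.87%, was nearly level. Of 52 hairpins with 200 or more reads without doxycycline the T share was higher without the drug in 34 and lower in 18, and the A share was lower in 44 and higher in 8. A read end can also be unmatched through a sequencing error, which was not tested.

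**Figure D5:**
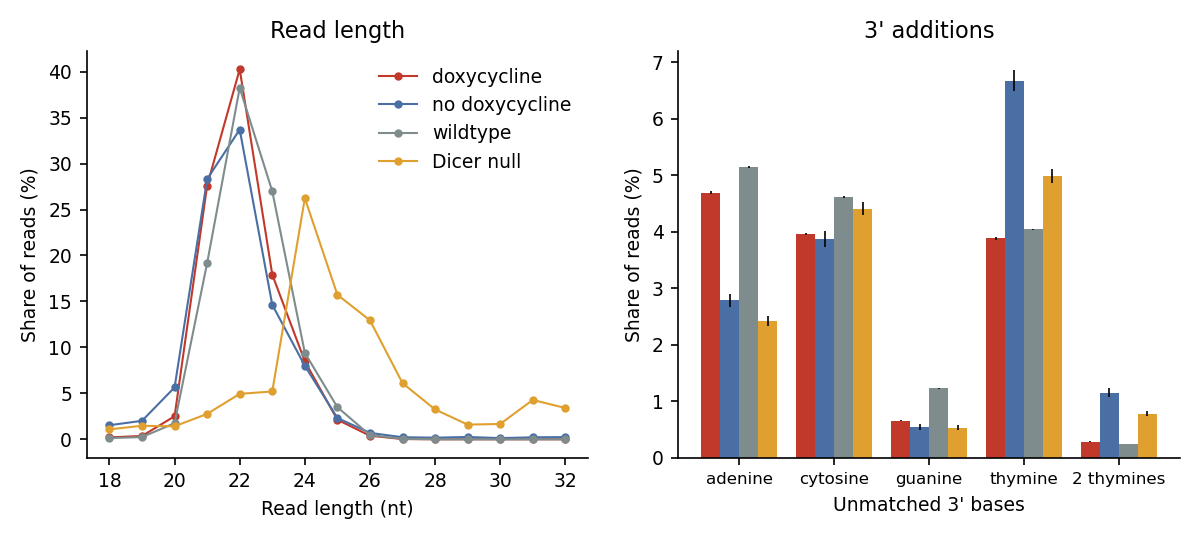
Left, share of reads (y axis, %) of Dicer-dependent hairpins by read length (x axis, nt, shown from 18 to 32) in the 4 single libraries. Right, share of reads (y axis, %) that end in the given unmatched bases (x axis) in the same libraries and colours, with 95% Clopper-Pearson intervals as error bars; a single thymine stands on 6.68% without doxycycline and 3.88% with it.

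Promoter-proximal reads, which begin in the first 200 nt of a protein-coding transcript and fit no other gene, were compared because the title of the series is about such RNAs in Argonaute. They made up 0.203% of reads with doxycycline and 0.235% without it (ratio 0.864, interval 0.850 to 0.878), and 24.4% and 23.6% of them were 20 to 24 nt long. Of 106 such windows with 100 or more reads, of 10458 with a read in the pair, 2 were higher by 2-fold or more (1.89%) and 4 were lower (3.77%).

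Cpsf4l, a gene of the polyadenylation factor family, stood apart. Its window had 225 reads in the induced cells, 5 in the uninduced ones, and 233 and 25 in wildtype and Dicer null. The ratio was 42.9 (18.1 to 133), close to the Dicer-dependent median of 41.1. Its main RNA begins at base 36 of the transcript and is printed because it has the size and first base of a miRNA.
Cpsf4l start RNA: Tctgtcccacacaccctctgac
This 22 nt read had 96 reads in the induced library and 93 in wildtype, and 0 in the other two. That is 30.5-fold higher with the drug when 0 is set to 3 counts, with a lower interval limit of 24.3.

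The other window calls were small. Rab3gap1 had 97 and 45 reads, a ratio of 2.06 (1.43 to 2.997). Like the Cpsf4l window it was lower in the Dicer null (11 reads, 0.140 CPM) than in wildtype (85 reads, 2.64 CPM). The 4 lower windows were Nanog, a pluripotency factor, with 35 and 95 reads (0.351), Spaca6 with 59 and 139 (0.405), the metallothionein gene Mt2 with 31 and 70 (0.422) and the alkaline phosphatase gene Alpl with 194 and 432 (0.428). Folds of this size lie within those between replicate libraries given above for hairpins. Chac1, an enzyme of glutathione breakdown, had 18 reads with doxycycline and 1 without it, a ratio of 17.2 (2.71 to 715), under the read minimum. None of 11 ribosomal protein windows and none of 9 housekeeping windows passed 2-fold (median ratios 1.16 and 0.807). The pluripotency list had Nanog as its 1 lower window of 4, and no window of the small RNA pathway list reached 100 reads.

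Other small RNA genes gave almost no calls. Of 419 features 2 were higher (0.477%) and 3 lower (0.716%). The 274 snoRNA features had a median ratio of 0.941, the 54 snRNA features 0.794 and the 31 rRNA features 0.759. At 10 CPM or more the highest ratio was that of the mitochondrial tRNA mt-Ti, with 2669 and 1403 reads (1.81), and among the lowest was Rn7sk, the RNA that restrains the elongation factor P-TEFb, with 4198 and 7075 reads (0.566). The 2 higher features, Snord123 with 139 and 58 reads and Gm24313 with 90 and 23, were below that level.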

How the data were processed

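Per the labels' protocols RNA of 18 to 75 nt was cloned with the NEBNext kit. The authors deposited, for each sample, the a list of unique sequences and their raw read counts, not normalised. Trimming, an aligner and a genome build are not given in the sources used here. Sequences of 18 nt or more without N were matched exactly, sense strand, to GENCODE M21 transcripts (GRCm38, 141767 transcripts), in the order miRNA gene, other small RNA gene, promoter-proximal window, other transcript. Reads under 18 nt were 10.8% and 12.3% of the pair. CPM is per all reads of the file. Ratios have exact binomial intervals (Clopper-Pearson, 95%); matching and intervals were tested on simulated data. Python 3.11.15, numpy 2.4.6, pandas 2.3.3, scipy 1.17.1, numba 0.67.0 and matplotlib 3.10.9 were used. The reads carry no molecular identifiers, and intervals and floors therefore leave out PCR duplication and library preparation.

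A mature RefSeq sequence matched 249 of the 317 features that meet the rule for Dicer dependence in the reference libraries; 255 of the 317 also had 100 or more reads over the pair. Named hairpins are drawn from the 8 highest and 8 lowest ratios at 10 CPM or more, the 10 most abundant and 3 per list (21 hairpin and 6 window lists); Argonaute genes and Dicer1 were always named; windows and other small RNAs follow the same rule. Members and lists were chosen with earlier results of these data known. Strands, first bases, tails and starts were named after their values were seen. Alternatives were other scalings, read minimums, lengths and arm definitions, and distinct sequences counted once.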

Additional observations from a re-analysis of the deposited data

How the results depend on the processing

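The 2-fold calls of hairpins changed little under 2 of 3 other scalings: 258 were higher when scaled to reads outside hairpins and 257 when scaled to snoRNA and snRNA reads, against 256, and 3 or fewer were lower. The median log2 ratio moved to 3.71 at 20 reads or more, 5.46 at 1000 reads or more, 5.43 with 20 to 24 nt reads and 0.78 with each distinct sequence counted once. Higher hairpins then numbered 345 of 508 at 20 reads or more, 121 of 149 at 1000 reads or more and 165 of 398 with distinct sequences. Lower ones numbered 15, 1 and 5 in the same order, and 0 of 327 scaled to reads outside hairpins. The third changed them: centred on the median hairpin, 90 were higher and 129 lower. The hairpin share ratio was 7.78 over reads of 18 nt or more, 1.48 with distinct sequences, 17.3 among 20 to 24 nt reads and 8.17 with unmatched 3' bases allowed. The window share ratio was 0.946 over reads outside hairpins, 0.951 with distinct sequences and 0.569 among 20 to 24 nt reads. Windows higher numbered 41 at 20 reads and 169 with distinct sequences, and windows lower 112, 290 and, in the first 100 nt, 1; lower minimums test more windows, 1148 and 2511. The ratio of minor arm shares was 0.998 over all hairpins, 0.440 with arms set by mature starts, 0.545 with 20 to 24 nt reads, 0.426 in Dicer-dependent hairpins and 1.59 with the major arm taken from the pull-down. The ratio of tailed shares was 1.24 over all hairpins, 1.54 with 1 tail base, 1.28 without the most abundant hairpin and 0.920 in Dicer-dependent hairpins. The difference in mean length was −8.31 nt over all hairpins, 0.51 nt among reads of 18 to 26 nt, −0.32 nt as a mean of hairpin means and −0.14 nt in Dicer-dependent hairpins. The causes of these moves were not tested. Alternatives with Dicer-dependent hairpins, and all of those for first bases, were chosen after seeing the data; of the latter none moved the share under 2-fold beyond its counting interval. No paired analysis was possible because the groups hold 1 library each.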

Other observations

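Some Dicer-dependent hairpins were above wildtype in the induced line. Of 255, 5 stood at 2 times wildtype or more with doxycycline, while all 255 were below wildtype without it. Among these 5, the blood miRNA Mir142 stood at 68.4 CPM with doxycycline, 7.72 CPM without it and 22.3 CPM in wildtype. Mirlet7f-1/Mirlet7f-2 stood at 57.1, 1.13 and 25.8 CPM. Without doxycycline 210 of the 255 were still above the Dicer-null level.

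Variants of Mir320 that differ by 1 base at the 3' end differed in their ratio. The 22 nt form had 1234 and 48 reads, a ratio of 24.5 (18.4 to 33.4), the 23 nt form 618 and 243 reads (2.43, interval 2.09 to 2.83) and the 24 nt form 210 and 3 reads (66.8, interval 22.5 to 326).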
